A study of Mus musculus with 9 samples.

Results

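The 10 genes described here, Fos, Fosb, Jun, Junb, Jund, Egr1, Egr3, Ier2, Dusp1 and Nr4a1, were taken as a list of known immediate early genes and found by symbol in the platform annotation, among 24259 genes tested. Of these, 9 had a probe set of their own. The only probe set annotated to Junb was annotated to a second gene as well, so Junb was not analysed here.

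Immediate early genes are transcribed within minutes of a stimulus, with no need for new protein, because transcription factors that wait at their promoters are switched on by MAP kinase, calcium and cyclic AMP signals. Many of their products are transcription factors themselves, among them the Fos and Jun proteins that pair as AP-1, the zinc finger factors of the Egr family and the orphan nuclear receptor Nr4a1. Others end the signal, such as Dusp1, a phosphatase that removes phosphate from MAP kinases. In the retina they respond to light, to injury and to growth factors.

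RNA of mouse retina at postnatal day 8 had been hybridized to an Affymetrix whole-transcript array, 3 arrays in each of 3 genotypes and 9 in all. The groups were wild type (WT), Rb knockout (Rb KO, without the retinoblastoma gene Rb1) and Rb/p107 double knockout (DKO below, without Rb1 and without Rbl1, which encodes the related pocket protein p107). The mice were of the mixed strain C57Bl/6x129SvJ in all groups. Arrays within a group are described as biological replicates, and their number limits the precision. How the genes were deleted, in which retinal cells, and whether animals were pooled are not given in the sources used here. Retina mixes cell types, so fewer cells of a type and less RNA per cell cannot be told apart in any difference below.

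Values are log2 intensities, and a difference of 1 is a doubling. A reading was taken as above background when it exceeded the 95th percentile of its own array's negative controls, which lay between 7.94 and 8.5. Rb1 read 10.22 in WT, 9.91 in Rb KO and 9.86 in DKO on average, with differences from WT of -0.31 (adjusted p = 0.0793) and -0.36 (adjusted p = 0.0423). The part of the transcript that this probe set reads is not known here, so it does not check the knockout, and Rbl1 was not analysed here. Retinal markers were present: all 9 measured rod and cone genes exceeded background in at least 1 array, with list means of 11.2 to 11.28 in WT. They were lower in the mutants, at 9.38 to 10.11 in Rb KO and 9.32 to 10.09 in DKO. Markers of cycling cells were higher, at 6.83 to 7.11 in WT, 10.13 to 10.58 in Rb KO and 10.57 to 10.82 in DKO. DKO replicate 2 stood apart in the sex-linked gene Xist, at 5.47 against 11.44 to 12.15 in the other arrays. Eif2s3y, a gene of the Y chromosome, read 9.12 there and 4.54 to 4.91 elsewhere. By these genes that array was male and the others female. The lens gene Cryaa read 11.22 in DKO replicate 2, 9.2 and 8.83 in DKO replicates 1 and 3, and 7.49 to 8.57 in WT and Rb KO. Every call for a measured member of the list was the same without DKO replicate 2.

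For the members whose differences are described first, the promoter sequence shows which of the signal response elements searched for lie close to the start. The 250 bases before the annotated start are given for Dusp1 and Fos, which rose in both mutants, and for Nr4a1, which moved the opposite way. They are also given for Jun, which differed between the mutants. The Jun window held none of the marked elements as spelled below. It does hold TGACATCA, a near match to the cyclic AMP response element that was not searched for. The sequences come from RefSeq on assembly GRCm38.p6, and the windows of 7 of the 10 genes were used. Those of Egr1, Egr3 and Ier2 were not used here, which does not show that RefSeq lacks them. Capitals mark the cyclic AMP response element (CRE) TGACGTCA, its shorter core TGACG, which reads CGTCA on the other strand, and the TATA box TATAAA. The core lies within the full element, and it was added to the search after the promoters were seen.

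Dusp1, chr17:26508473-26508722, minus strand: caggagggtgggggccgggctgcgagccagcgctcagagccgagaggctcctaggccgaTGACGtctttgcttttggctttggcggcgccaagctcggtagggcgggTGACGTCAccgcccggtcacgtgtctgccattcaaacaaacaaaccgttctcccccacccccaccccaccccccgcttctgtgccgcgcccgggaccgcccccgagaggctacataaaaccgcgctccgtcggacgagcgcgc
Fos, chr12:85473640-85473889, plus strand: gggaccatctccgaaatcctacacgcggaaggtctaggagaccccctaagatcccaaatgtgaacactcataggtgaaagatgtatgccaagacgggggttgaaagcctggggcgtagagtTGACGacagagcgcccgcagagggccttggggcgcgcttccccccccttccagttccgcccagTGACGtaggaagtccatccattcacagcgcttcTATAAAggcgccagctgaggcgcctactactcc
Nr4a1, chr15:101266596-101266845, plus strand: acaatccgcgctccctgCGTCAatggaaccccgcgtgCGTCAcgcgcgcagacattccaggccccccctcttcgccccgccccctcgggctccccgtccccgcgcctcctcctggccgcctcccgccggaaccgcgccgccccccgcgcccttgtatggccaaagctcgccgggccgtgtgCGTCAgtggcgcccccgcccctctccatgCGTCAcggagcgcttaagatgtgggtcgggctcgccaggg
Jun, chr4:95052223-95052472, minus strand: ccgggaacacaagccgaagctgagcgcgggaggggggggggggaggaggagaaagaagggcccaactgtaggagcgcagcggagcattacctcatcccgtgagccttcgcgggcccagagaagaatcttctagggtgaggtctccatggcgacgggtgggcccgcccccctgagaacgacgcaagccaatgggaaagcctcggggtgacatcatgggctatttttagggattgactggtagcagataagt

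The Dusp1 window held the full CRE between 143 and 136 bases before the start, and 1.55% of 32851 promoter windows of this length held it on either strand. The core was present in 5 of the 7 members whose windows were used (Dusp1, Fos, Fosb, Junb and Nr4a1) and in 17.8% of all windows. As it was chosen after these promoters were seen, the comparison is no test of enrichment. Nr4a1 had 4 copies of the core. The TATA box of Fos lay between 33 and 28 bases before its start, and 12.4% of windows held one on either strand. None of the 7 windows held the serum response element (CArG box), the AP-1 site TGACTCA, the E2F sites TTTCCCGC or TTTGGCGC or the Egr site GCGTGGGCG, which 1.47%, 4.46%, 0.895%, 0.417% and 0.536% of all windows held. Bases outside these windows were not searched, so an element absent here may lie further from the start. A match of letters is a description and not evidence of binding.

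In Rb KO retinas against WT, 6 of the 9 measured members passed the test. Dusp1, Ier2, Jun, Jund and Fos rose and Nr4a1 fell, while Fosb, Egr1 and Egr3 did not pass. A gene was called at a Benjamini-Hochberg adjusted p under 0.05 over all 24259 genes, and the same rule called 24.4% of all genes in this comparison, 10.2% as higher and 14.3% as lower. In a separate refit on the 7843 genes above background in at least 3 arrays, with p-values adjusted over those, 51.3% were called. Of the 7 members among them, 6 were called. Ier2 passed this filter through mutant arrays only, and Dusp1 through 1 WT array and 3 arrays of each mutant. Nr4a1 passed it through 3 WT arrays and 1 DKO array, and Fos through 1 WT, 1 Rb KO and 2 DKO arrays. The calls of these members in the refit, here and in DKO below, are thus not independent of the filter. The members' median log2 difference was 0.45, against -0.05 over all genes. In DKO against the same WT arrays, Dusp1, Ier2 and Fos rose and Nr4a1 fell, and the other 5 measured members did not pass. Here 29.3% of all genes were called, 12.2% higher and 17.1% lower, and the median was 0.24 over the members against -0.06 over all genes. The share in the refit on brighter genes was 55.2%, and there 5 of the 7 members were called, with Jun added. Between the mutants 2.54% of all genes were called, 1.34% higher and 1.21% lower in DKO, and among the members 1 passed, Jun, as lower in DKO than in Rb KO.

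**Figure D1:**
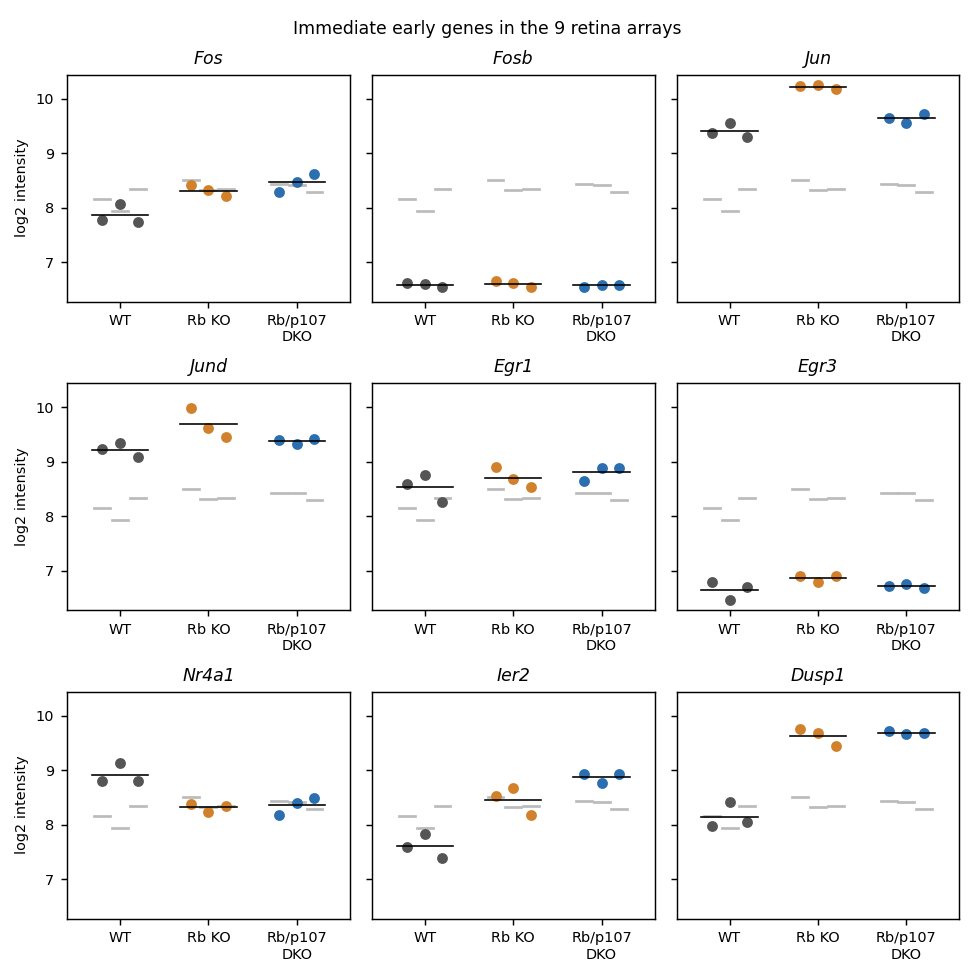
Log2 intensity of the 9 measured immediate early genes on each array, with WT in grey, Rb KO in orange and Rb/p107 DKO in blue and replicates 1 to 3 from left to right. Black lines are group means and light grey ticks the 95th percentile of the negative controls on that array. Dusp1 lies between 7.98 and 8.41 in WT and between 9.44 and 9.76 in the mutants, Jun is highest in Rb KO, and all Fosb and Egr3 points lie under their ticks.

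Dusp1 encodes the phosphatase that inactivates MAP kinases, p38 and JNK foremost, in the nucleus. It read 7.98, 8.41 and 8.06 on the WT arrays, 9.76, 9.69 and 9.44 on those of Rb KO and 9.72, 9.66 and 9.68 on those of DKO. Every mutant array was above every WT array by more than 1 log2 unit, and the DKO readings lay within the range of Rb KO. Against WT the difference was 1.48 in Rb KO (SE 0.119, 2.79-fold, adjusted p = 1.14e-05) and 1.54 in DKO (SE 0.119, 2.9-fold, adjusted p = 5.77e-06). Only replicate 2 of the WT arrays exceeded background, so WT sat at the edge of what the array resolved. The mutants differed by 0.06 (95% confidence interval -0.20 to 0.32, adjusted p = 0.936).

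Ier2 encodes a small nuclear protein that responds to serum and growth factors. Its readings were 7.6, 7.83 and 7.39 on the WT arrays, 8.53, 8.67 and 8.18 on those of Rb KO and 8.93, 8.76 and 8.93 on those of DKO. The 3 groups did not overlap and stood in the order WT, Rb KO, DKO. The fitted rises were 0.85 in Rb KO (SE 0.138, adjusted p = 0.0012) and 1.27 in DKO (SE 0.138, adjusted p = 7.4e-05). No WT array was above background, and neither was Rb KO replicate 3, whose reading is part of the Rb KO mean. Set against the background percentile in place of the dim WT reading, the rises were at least 1.24-fold in Rb KO and at least 1.65-fold in DKO. DKO was 0.41 above Rb KO (95% confidence interval 0.11 to 0.71), which did not pass over all genes (adjusted p = 0.184).

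Jun, the AP-1 subunit that JNK phosphorylates and that can bind DNA as a pair of Jun proteins or with Fos, was the member that set the mutants apart. It read 9.36, 9.56 and 9.3 on the WT arrays, 10.22, 10.25 and 10.17 on those of Rb KO and 9.65, 9.55 and 9.72 on those of DKO. All 9 readings were above background, the Rb KO arrays lay above all others, and DKO overlapped WT at a single array of each. The rise in Rb KO was 0.81 (SE 0.0842, 1.75-fold, adjusted p = 7.66e-05). DKO was lower than Rb KO by 1.48-fold, a log2 difference of -0.57 (SE 0.0842, adjusted p = 0.00561), and this call held without any single array (adjusted p = 0.00216 to 0.0321). In DKO against WT the difference was 0.24 (95% confidence interval 0.05 to 0.42), just outside the threshold at adjusted p = 0.0574. It passed in 5 of the other fits, among them the fit without WT replicate 2 (0.31, adjusted p = 0.0111). Between the mutants, 2 of the 9 rod and cone genes passed, Crx (-0.60, adjusted p = 0.0297) and Nrl (-0.63, adjusted p = 0.0304), both lower in DKO, and 7 did not, among them Gnat1 (1.18) and Pde6a (0.93), with a list median of -0.10. Of 8 Muller glia genes 1 passed, as higher in DKO, with a list median of 0.01, and none of the bipolar and ganglion cell genes did. The part of these cells in the difference in Jun was not tested.

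Jund, the Jun protein that is present in many resting cells and is less dependent on a stimulus, read 9.23, 9.34 and 9.08 on the WT arrays, 9.98, 9.61 and 9.46 on those of Rb KO and 9.4, 9.33 and 9.42 on those of DKO. Rb KO lay above both other groups without overlap, with replicate 1 well above its fellows. The rise in Rb KO was 0.47 (SE 0.123, 1.38-fold, adjusted p = 0.0181), and with WT replicate 3 left out it no longer passed (0.40, adjusted p = 0.0629). DKO differed from WT by 0.16 (95% confidence interval -0.11 to 0.43, adjusted p = 0.359) and from Rb KO by -0.30 (95% confidence interval -0.57 to -0.03, adjusted p = 0.295). Without Rb KO replicate 1 the difference between the mutants was -0.15 (adjusted p = 0.621).

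Fos, the AP-1 subunit that binds DNA only with a partner such as Jun, rose modestly in both mutants. Its log2 intensities were 7.77, 8.07 and 7.74 on the WT arrays, 8.41, 8.32 and 8.21 on those of Rb KO and 8.29, 8.48 and 8.62 on those of DKO. Both mutants lay above WT without overlap, and they overlapped each other. Against WT the rise was 0.45 in Rb KO (SE 0.112, adjusted p = 0.0141) and 0.60 in DKO (SE 0.112, adjusted p = 0.00228). Only 4 of the 9 readings exceeded background, 1 of them in WT, so the sizes are those of a dim probe set. The Rb KO call ended when replicate 1 of WT (0.41, adjusted p = 0.0532) or replicate 1 of Rb KO (0.40, adjusted p = 0.0585) was left out.

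Nr4a1, the orphan nuclear receptor also called Nur77, was the member that fell. It read 8.8, 9.14 and 8.8 on the WT arrays, 8.38, 8.24 and 8.34 on those of Rb KO and 8.18, 8.4 and 8.49 on those of DKO. All WT arrays were above background and above all mutant arrays, while no Rb KO array and 1 DKO array exceeded background. The log2 difference from WT was -0.60 in Rb KO (SE 0.111, adjusted p = 0.00279) and -0.56 in DKO (SE 0.111, adjusted p = 0.00334). Against the background percentile the fall in Rb KO was at least 1.44-fold. The mutants differed by 0.04 (95% confidence interval -0.20 to 0.28).

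Egr1, the zinc finger factor induced beside Fos by the same kinases, read 8.59, 8.75 and 8.27 on the WT arrays, 8.9, 8.68 and 8.53 on those of Rb KO and 8.64, 8.88 and 8.89 on those of DKO. The 3 groups overlapped, with the lowest value in WT replicate 3, the only one of the 9 arrays not above background. Its differences from WT were 0.17 in Rb KO (95% confidence interval -0.13 to 0.46, adjusted p = 0.43) and 0.27 in DKO (95% confidence interval -0.03 to 0.56, adjusted p = 0.168). These intervals leave room for a rise as large as that fitted for Fos in Rb KO, and for none.

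Fosb and Egr3 were not above background in any array. Fosb, a Fos relative that forms AP-1 with Jun proteins, lay between 6.54 and 6.65 in all 9 arrays, and its differences between groups were at most 0.03 in size. Egr3, a zinc finger factor downstream of Egr1 in several cell types, had 3 probe sets, and the brightest lay between 6.47 and 6.91. It stood 0.21 higher in Rb KO than in WT without overlap (adjusted p = 0.109), a difference between background readings, and the other probe sets stood at 0.05 and 0.08. Whether Fosb and Egr3 differed was not detectable at this signal.

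**Figure D2:**
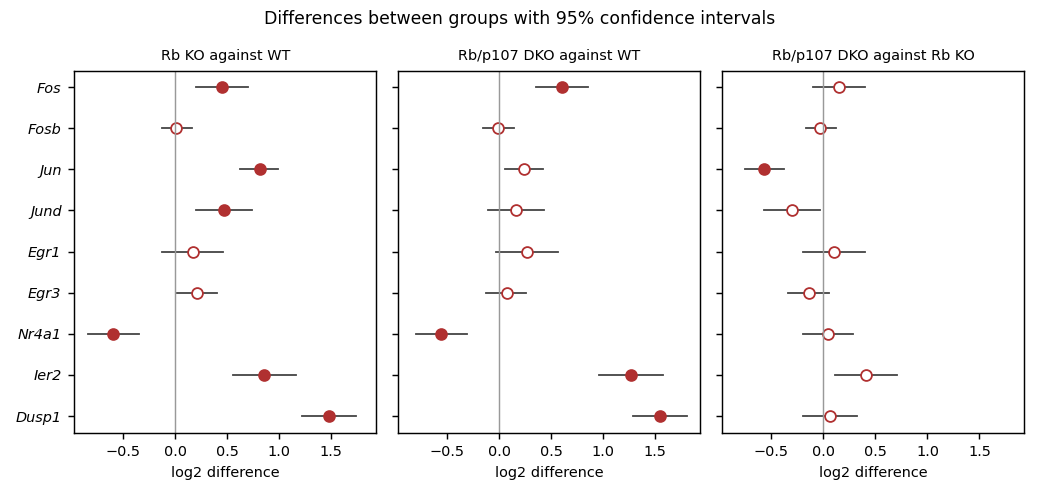
Log2 difference of each measured immediate early gene in the 3 comparisons, with the 95% confidence interval of the limma fit as a line. Filled points passed an adjusted p under 0.05 over all genes and open points did not. Jun is the only filled point between the mutants, at -0.57, and Nr4a1 is the only point below 0 that is filled against WT.

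Of the 3 WT arrays, replicate 2 read highest for each of the 7 members above background in at least 3 arrays, whichever way they moved in the mutants. How many of all genes read highest on that array was not counted, so this trait is not shown to be particular to the members. That array also had the lowest background percentile (7.94) and the best separation of positive from negative controls, with an area under the curve of 0.954 against 0.927 to 0.944 in the other 8. With that separation as a covariate, Jund in Rb KO (0.51, adjusted p = 0.0528) and Nr4a1 in DKO (-0.40, adjusted p = 0.0645) no longer passed. The separation ran from 0.932 to 0.954 in WT and from 0.927 to 0.936 in the mutants, so this covariate partly follows genotype. With it the SE for Jund in Rb KO rose from 0.123 to 0.158. Calls lost under it, here and below, thus cannot be assigned to array quality. Other cell type markers also moved with the genotypes. All 6 bipolar genes fell in Rb KO and 5 of 6 in DKO, with list means of 10.52 to 10.74 in WT, 8.91 to 9.79 in Rb KO and 8.86 to 9.69 in DKO. All 9 ganglion cell genes fell in both, with means of 9.47 to 9.75 in WT, 8.73 to 9.2 in Rb KO and 8.65 to 8.99 in DKO. Of 8 pigment epithelium genes 7 fell in both, and 4 of the 8 exceeded background in any array. Their means were 7.29 to 7.56, 6.37 to 6.56 and 6.27 to 6.48 in the same order. Amacrine and horizontal cell genes had 2 rises and 1 fall of 6 in each mutant. Mean readings of 8 Muller glia genes were 9.7 to 9.94 in WT, 9.45 to 9.46 in Rb KO and 9.49 to 9.64 in DKO. Those of 10 endothelial and pericyte genes were 8.28 to 8.51, 7.92 to 7.95 and 7.61 to 7.89, and those of 9 microglia genes 7.23 to 7.31, 7.51 to 7.99 and 7.72 to 8.02. The 9 lens genes read 6.87 to 7.18, 7.01 to 7.33 and 7.58 to 9.19. Of the 8 Muller glia, 10 vessel and 9 microglia genes, 8, 7 and 3 exceeded background in any array. The part of all these cells, of the photoreceptors and of the cycling cells in the members' differences was not tested. Of 7 measured heat shock and dissociation stress genes, none passed the test as higher, and Hspa1a fell at least 1.15-fold in each mutant, where no reading was above background.

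Other immediate early genes are described by their counts, beside the 24.4% and 29.3% of all genes called in Rb KO and DKO against WT. Of 39 other immediate early genes, 30 were measured, and in Rb KO there were 8 rises, 3 falls and 19 genes that did not pass, with a median of 0.07 against -0.05 over all genes. In DKO 10 rose, 5 fell and 15 did not pass. Only 17 of the 30 exceeded background in any array, and the rises in Rb KO of Arc, Npas4, Klf4 and Zfp36 were among background readings. Myc, which drives cell growth, read 7.67, 7.59 and 7.46 on the WT arrays, 8.93, 8.74 and 8.67 on those of Rb KO and 8.63, 8.51 and 8.53 on those of DKO. It rose in both mutants without overlap, by 1.21 (SE 0.0892, adjusted p = 6.02e-06) and 0.98 (SE 0.0892, adjusted p = 1.95e-05), though no WT array was above background and the rises were at least 1.55-fold and at least 1.33-fold. Klf10, a zinc finger repressor induced by TGF-beta, rose by 1.05 in Rb KO (SE 0.0934, adjusted p = 2.41e-05) and 0.56 in DKO (SE 0.0934, adjusted p = 0.00116). Ier3, a survival gene, fell by 0.53 and 0.44, and Ccn2, a secreted matrix protein that reads out SRF and YAP activity, fell by 0.48 and 0.49, with no mutant reading of Ccn2 above background. The Rb KO call for Ccn2 ended when WT replicate 1 or replicate 2 of Rb KO was left out (adjusted p up to 0.0665) and both of its calls with the control separation as a covariate (0.128 and 0.185), as did the DKO call for Ier3 (adjusted p = 0.125).

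**Figure D3:**
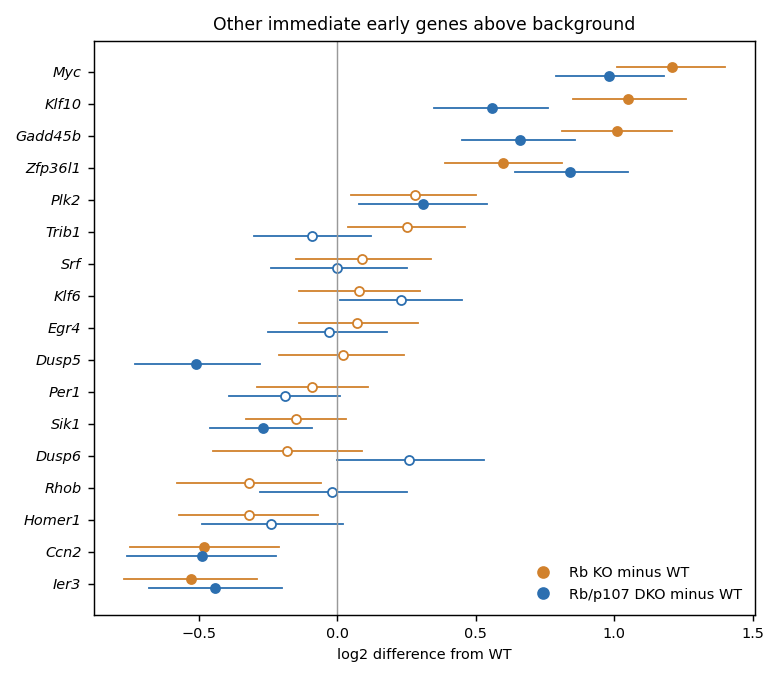
Log2 difference from WT in Rb KO (orange) and Rb/p107 DKO (blue) for the 17 other immediate early genes above background in at least 1 array, with 95% confidence intervals. Filled points passed an adjusted p under 0.05 over all genes and open points did not, and both comparisons share the WT arrays. Myc stands highest in both, at 1.21 and 0.98 among the rises of Rb KO and DKO, and Ier3 lowest in Rb KO at -0.53.

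Genes that carry signals to the immediate early promoters are read against the 24.4% and 29.3% of all genes called, and the 51.3% and 55.2% in the refit on brighter genes. Of 16 measured SRF, ternary complex and CREB regulators, 3 rose and 4 fell in Rb KO and 2 rose and 4 fell in DKO. Crebbp, the coactivator CBP, and Atf1, a CREB relative, rose in Rb KO by 0.59 (SE 0.115, adjusted p = 0.0038) and 0.45 (SE 0.0808, adjusted p = 0.00232). The calcium-activated kinase genes Camk4 and Camk2a fell in Rb KO by 0.50 and 0.57, Camk2a to readings not above background (at least 1.26-fold lower). Srf itself read 8.7 to 9 in WT, 8.73 to 9.1 in Rb KO and 8.75 to 8.84 in DKO, and its differences from WT were 0.09 and 0. Of 21 measured MAP kinase pathway genes, 4 rose and 4 fell in Rb KO and 5 rose and 4 fell in DKO. Mapk10, which encodes the neuronal JNK that phosphorylates Jun, rose by 0.50 and 0.66, and Map2k1, the kinase above ERK, fell by 0.53 and 0.43. Egfr rose by 0.77 and 1.26 from WT readings of which 1 of 3 was above background. Ntrk2, the receptor of the neurotrophin BDNF, fell at least 1.32-fold in Rb KO, where no reading was above background, and by 0.41 in DKO. With the control separation as a covariate the DKO falls of Map2k1 (adjusted p = 0.059) and Ntrk2 (adjusted p = 0.0921) no longer passed. The Egfr call in Rb KO ended without Rb KO replicate 1 (adjusted p = 0.0521). Of 11 other bZIP factors, which can pair with or compete with AP-1, 2 rose and 1 fell in Rb KO, and 3 rose and 1 fell in DKO. Nfe2l1 was the fall, by 0.43 and 0.52, and the rises in Rb KO were Atf1 and, among background readings, Atf5.

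Dusp1 rose in both mutants. Among the other phosphatases and feedback inhibitors of MAP kinase signalling more fell than rose, as over all genes, where 14.3% fell and 10.2% rose in Rb KO and 17.1% fell and 12.2% rose in DKO. Of 15 measured, Rb KO had 2 rises and 7 falls, with 6 that did not pass, and DKO had 2 rises and 9 falls, with 4 that did not pass. Their medians were -0.18 and -0.36, against -0.05 and -0.06 over all genes. Dusp4, an ERK phosphatase of the nucleus, read 9.59, 9.79 and 9.59 on the WT arrays, 9.16, 9.29 and 9.03 on those of Rb KO and 9.28, 9.36 and 9.33 on those of DKO. Its fall was 0.50 in Rb KO (SE 0.0884, adjusted p = 0.00224) and 0.33 in DKO (SE 0.0884, adjusted p = 0.0158), the latter lost without DKO replicate 1 (adjusted p = 0.0648), with array medians subtracted (adjusted p = 0.0514) and with the control separation as a covariate (adjusted p = 0.16). Spry3 fell among background readings. Nab2, the corepressor that binds Egr factors and limits their activity, rose by 0.52 in Rb KO (SE 0.099, adjusted p = 0.00316) and 1.22 in DKO (SE 0.099, adjusted p = 8.61e-06). Of 18 measured later activity-regulated genes, 1 rose and 6 fell in Rb KO and 3 rose and 5 fell in DKO. Rem2, a small GTPase induced by depolarization, was the rise in Rb KO, by 0.53 (SE 0.0775, adjusted p = 0.000624). The falls with the lowest p were Rasgrf1, at least 1.58-fold lower in Rb KO, where no reading was above background, and Pcsk1, a prohormone convertase read at background in all groups.

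Besides Jun, 5 genes of these lists that reached background in every array of their brighter group differed between the mutants, and they were picked out after their values were seen. Klf10, Dusp5 and Dusp16 were lower in DKO than in Rb KO, as Jun was, and Nab2 and Rasgrf1 were higher. Dusp16, a phosphatase of JNK and p38, read 8.48, 8.56 and 8.54 on the WT arrays, 9.03, 9.38 and 9.01 on those of Rb KO and 8.53, 8.62 and 8.51 on those of DKO. It rose in Rb KO by 0.61 (adjusted p = 0.00133) and stood at 0.02 in DKO against WT, with -0.58 between the mutants (SE 0.0995, adjusted p = 0.0123). This call ended without DKO replicate 1 or 3 (adjusted p up to 0.0658). Klf10 (-0.49, adjusted p = 0.0218) and Dusp5 (-0.52, adjusted p = 0.0266) lost theirs when any 1 of 5 arrays was left out, with adjusted p up to 0.104 and 0.11, and both lost theirs with array medians subtracted (adjusted p = 0.0604 and 0.0847). These arrays were Rb KO replicates 1 to 3 and DKO replicates 2 and 3 for Klf10, and Rb KO replicates 1 and 3 and every DKO replicate for Dusp5. Nab2 (0.70, SE 0.099, adjusted p = 0.00447) and Rasgrf1, a Ras exchange factor of neurons (adjusted p = 0.00369), kept theirs without any single array. No Rb KO reading of Rasgrf1 was above background, so its level in DKO was at least 1.36-fold higher.

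**Figure D4:**
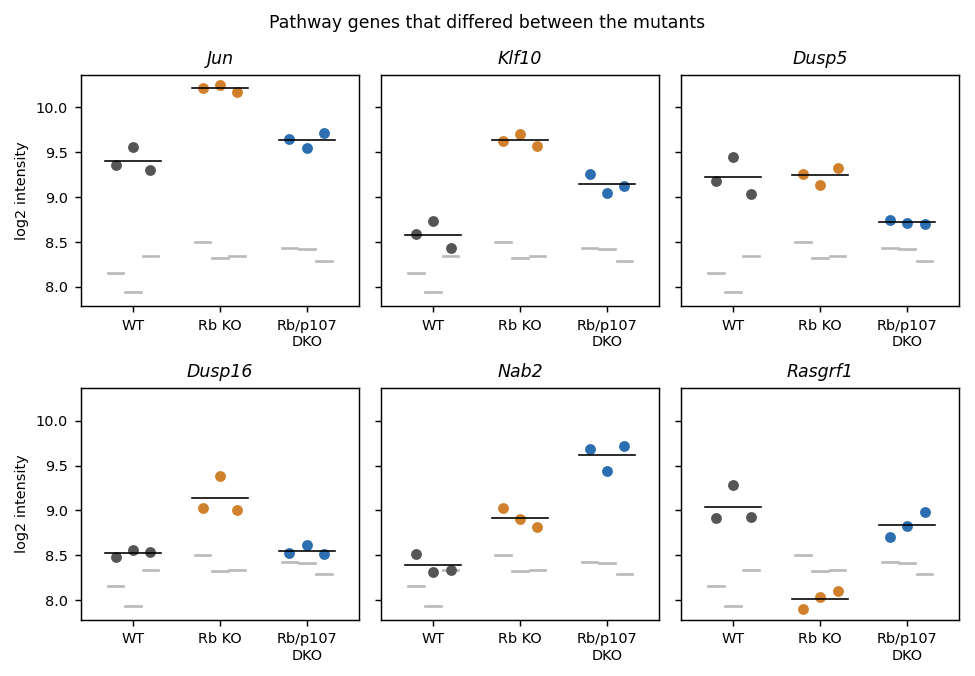
Log2 intensity by array of Jun and of 5 pathway genes called between the mutants, with WT in grey, Rb KO in orange and Rb/p107 DKO in blue, black lines at group means and light grey ticks at the background percentile. Jun, Klf10 and Dusp16 are highest in Rb KO, Dusp5 is lowest in DKO, Nab2 rises to 9.44 to 9.72 in DKO, and Rasgrf1 is lowest in Rb KO at 7.9 to 8.1.

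Jun and Jund were the members above background in all 9 arrays, and the genes most like them were sought by Pearson correlation over the 9 arrays among 4636 genes that were also above it in all 9, leaving out the members and symbols of predicted genes, small RNAs and olfactory receptors. Jun was most like Fabp7 (r = 0.978), Bmp2k (0.975) and Ece1 (0.971). Fabp7, a fatty acid binding protein of progenitors and glia, read 10.12 to 10.51 in WT, 11.91 to 12.01 in Rb KO and 10.7 to 11.09 in DKO, so it too was highest in Rb KO and intermediate in DKO. Jund was most like Ubtf (0.988), a factor of ribosomal RNA transcription, Plxnb1 (0.981) and Drosha (0.977), the microRNA processing enzyme. Plxnb1 shared the high reading of Rb KO replicate 1, at 9.66 against 9.22 and 9.11 in the other two. These correlations describe arrays that fall into 3 genotypes and carry no test.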

How the data were processed

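The authors deposited 1 table of log2 intensities, which the submitters' processing notes give as made with RMA (robust multi-array average). The version and the annotation's genome build are not given in the sources used here. Per the labels, column-purified RNA with an integrity score above 8 was amplified and biotinylated. Of 52917 transcript clusters 24646 had 1 gene symbol, 1795 several and 26476 none. Each gene was its brightest probe set, with 658 symbols updated to GRCm38.p6 names. Linear models in limma 3.58.1 (R 4.3.3) were fitted to all genes and arrays, with no trend and no filter (residual degrees of freedom 6, prior 4.69). Adjusted p-values are Benjamini-Hochberg over all genes. A floor written "at least" sets the brighter mean against the percentile or reading, whichever is higher, on each dim array, and is no confidence limit. The fit was tested on simulated data for Rb KO against WT, with few genes changed among 24259. It called 49 of 100 genes changed by 0.5 and 91 of 100 changed by 1. Figures used matplotlib 3.10.9.

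Members, gene lists, tests and alternatives were chosen with earlier results of these data known. Named were all members, from each other list up to 2 rising and 2 falling genes with the lowest p in Rb KO against WT, or 2 where none passed, the 3 genes most like each member above background in all arrays, and Rb1. Cell type lists are given by their group values, and genes named outside this rule were chosen after their values were seen. Alternatives covered normalization, probe set choice, a filter, variances, covariates and each array left out.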

Additional observations from a re-analysis of the deposited data

How the results depend on the processing

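The 9 measured members gave 6, 4 and 1 calls in Rb KO against WT, DKO against WT and DKO against Rb KO, and these counts stayed within 1.5 times under every alternative run. No call of a member changed direction. Of 453 member differences refitted, 443 kept their side of the threshold, 5 lost a call and 5 gained one, and the 5 gained were all Jun in DKO against WT. Over all genes, the 7113 calls in DKO against WT became 4330 when genes not above background in at least 3 arrays were left out, with 7843 genes tested. The 617 between the mutants became 391 with each array's median subtracted and ran from 253 to 859 without 1 array. Arrays of different groups share replicate numbers, but nothing in the labels says that the numbers pair them, and deviations of same-numbered arrays correlated at -0.162 to 0.145. With the replicate block the members gave the same 6, 4 and 1 calls, and all genes 5453, 6666 and 501. Of the genes named, Dusp5 lost its call between the mutants under that block (adjusted p = 0.0513). Low signal limits Fosb, Egr3, Fos and the WT readings of Ier2 and Dusp1. It also limits the mutant readings of Nr4a1 and the Ier2 reading of Rb KO replicate 3.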
